A study of Mus musculus with 60 samples.

Results

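The genes described here code for proteins of the synaptic vesicle, of its release machinery and of the postsynaptic density. The set was a list of 42 gene names that holds no receptor subunit, taken from the 35976 genes of the count table. All 42 were in the table, and all 42 passed the filter on low counts in each of the comparisons below. By role they fell into 10 vesicle proteins, 3 calcium sensors, 6 SNARE proteins and complexins, 6 proteins of the active zone and of vesicle priming, 5 adhesion molecules, 10 postsynaptic scaffolds and 2 kinase subunits.

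RNA was measured in the hippocampus of wild-type (WT) mice and of App NL-G-F knock-in mice (NLGF, APP-nlgf in the labels) at 3, 8 and 24 weeks of age. Each of the 6 sets of genotype and age held 10 libraries, 5 labelled female and 5 labelled male, 60 in all, and no treatment was given. In the NLGF line the mouse App gene itself carries a humanised Aβ sequence with the Swedish, Arctic and Iberian mutations of familial Alzheimer's disease, so App stays under its own promoter and no Cre or transgene is involved. The sources used here give neither strain background nor zygosity. The design text calls the libraries biological replicates without saying that each came from its own mouse. The tests therefore judge differences against the spread between these libraries, and whether that is the spread between mice is not known.

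When an action potential reaches a nerve terminal, synaptotagmins sense the incoming calcium, and a bundle of SNARE proteins (Snap25, a syntaxin and a synaptobrevin of the Vamp genes) pulls the vesicle onto the plasma membrane. Bassoon (Bsn), piccolo (Pclo) and Rims1 hold vesicles at the active zone, and Unc13 and CAPS proteins prime them. Across the cleft neurexins bind neuroligins, and Dlg, Dlgap, Shank and Homer proteins anchor receptors and the Camk2 kinase in the postsynaptic density. Loss of synapses is a long-known feature of Alzheimer's disease, and the hippocampus is among the regions affected early.

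The libraries were not all of one kind. In NLGF at week 3, 7 libraries (females 1, 4 and 5 and males 2 to 5) held 54026870 to 73423252 counts, and the other 53 of the series held 17786578 to 35162084. The same 7 libraries held 1739 to 5731 CPM (counts-per-million) of Bc1, a short neuronal RNA, against 2.27 to 16.2 CPM in the remaining 3 NLGF libraries of that age and 4.49 to 59.5 CPM in WT. They are called the deeper libraries below, and the genotype calls at week 3 are given with and without them. In NLGF male 2 of week 3, also a deeper library, the sex label went against the counts, and NLGF female 1 of week 8 carries an age label of 3 weeks beside a title that says week 8, by which it was placed. App itself lay between 1426 and 2413 CPM in every library and did not pass the test at any age (log2 fold change of NLGF over WT -0.09, -0.21 and -0.10 at weeks 3, 8 and 24, edgeR adjusted p = 0.286, 0.633 and 0.375). The knock-in changes the sequence of App, so its level checks no label. All 12 general neuron markers were detected in every set, with summed levels of 4201 to 5760 CPM, and a list of 15 genes of the thalamus and neighbouring regions summed to 172 to 746 CPM.

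Levels of the synaptic genes covered a wide range. Per kilobase of annotated exon, Camk2a, the alpha subunit of the calcium/calmodulin kinase of the postsynaptic density, stood highest, at 631 ± 112 CPM per kb (SD, n = 30 WT libraries). Complexin 2 (Cplx2, 339 CPM per kb), synaptophysin (Syp, 294 ± 70.2), the vesicular glutamate transporter VGLUT1 (Slc17a7, 273 CPM per kb), Cplx1 (246) and synaptobrevin 2 (Vamp2, 245) came next, and these neighbours lay within their spread of each other. At the other end were neuroligin 1 (Nlgn1, 8.17 CPM per kb), synaptotagmin 2 (Syt2, 7.62), VGLUT2 (Slc17a6, 4.76) and the vesicle protein Sv2c (2.85 ± 0.696). VGLUT1 is the transporter of hippocampal principal cells, while VGLUT2 is used by thalamic and other inputs whose cell bodies lie outside the hippocampus. Raw counts per library ran from 212 for Slc17a6 to 345222 for Camk2a.

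**Figure D1:**
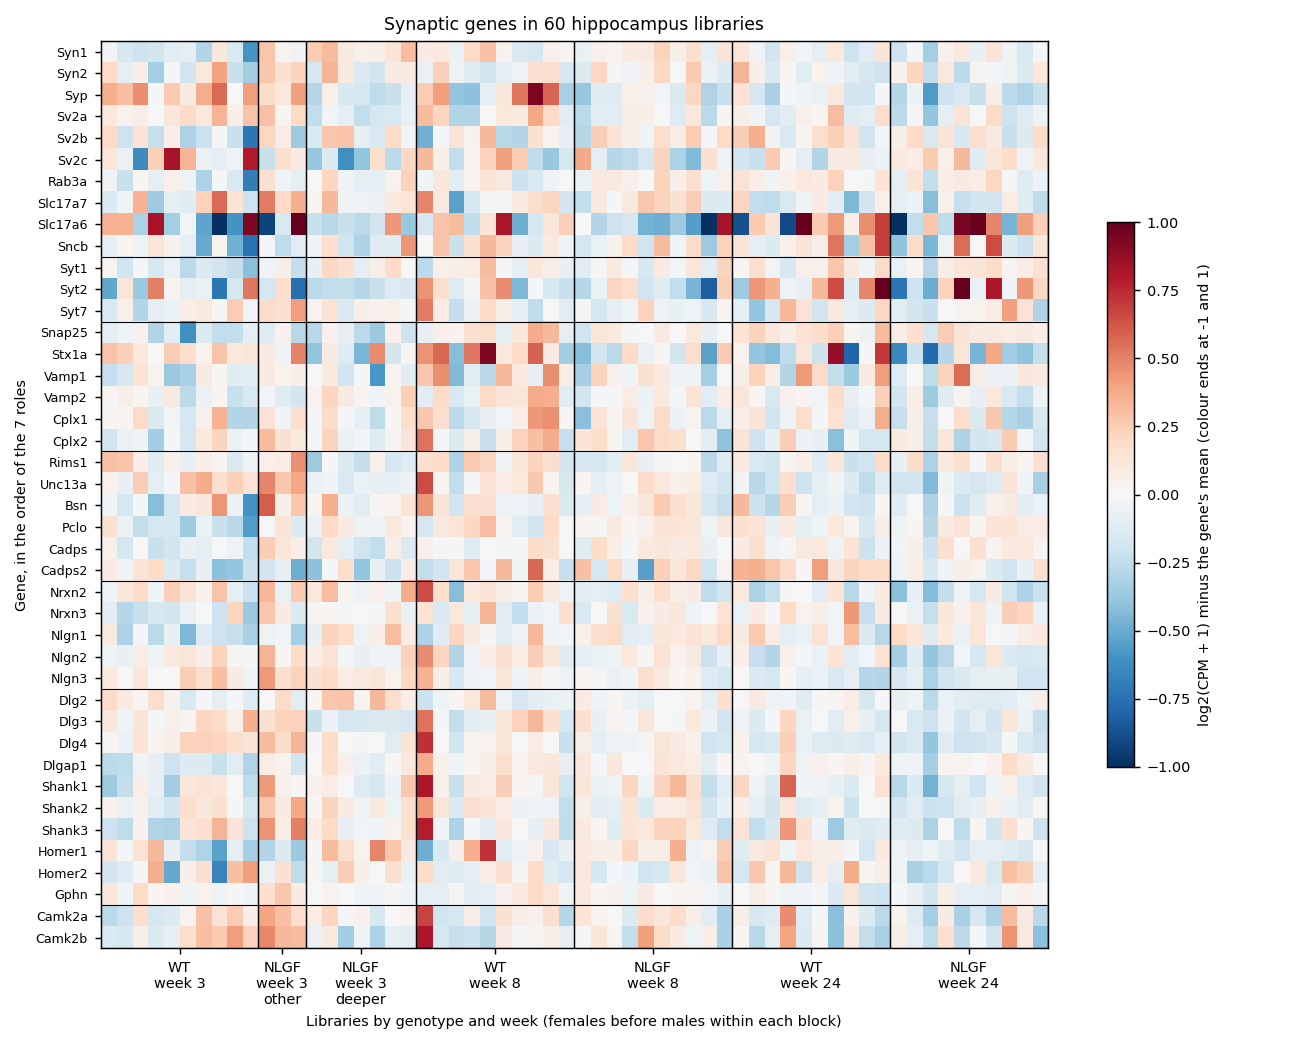
Level of each of the 42 genes in the 60 libraries, as the difference of log2(CPM + 1) from the gene's mean over all libraries (colour), with genes from top to bottom by role and libraries from left to right by age and genotype. Most squares sit close to the mean, single libraries such as WT week 8 female 1 show as dark stripes, and Slc17a6, Syt2 and Stx1a vary most from library to library.

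Some libraries stood apart over many of these genes at once. The median deviation of the 42 genes from their means was lowest in NLGF week 24 female 3 (-0.27 on the log2 scale), where 29 of the 42 genes had their lowest value of the set of 10. It was highest in WT week 8 female 1 (0.27), where 17 genes had their highest value of the set. Over all genes the median deviation was 0.011 in NLGF week 24 female 3 and -0.018 in WT week 8 female 1. The share of all genes with their lowest or highest value in these libraries was not counted. Medians of the 42 genes over whole sets spanned less, from -0.05 in WT week 3 and -0.05 in NLGF week 24 to 0.07 in WT week 8. Of 252 combinations of a gene and a set, 29 had an end value far from the other 9, and 14 libraries supplied all of these.

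**Figure D2:**
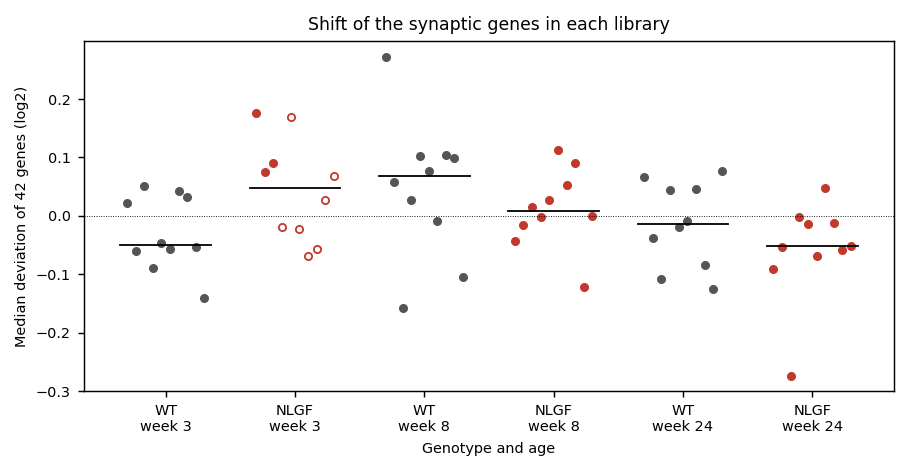
Median deviation of the 42 genes from their means over all libraries (log2, vertical axis) in each library, by genotype and week, with bars at the medians of the sets and open circles for the deeper libraries. Libraries of one set spread by more than the sets differ, and NLGF week 24 female 3 and WT week 8 female 1 lie at the ends.

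The sequences before the start of 4 of these genes are shown because their transcripts carried the genotype or age results below. RefSeq promoter entries on GRCm38.p6, the build named in the submitters' notes as mm10, matched 34 of the 42 genes. Capitals mark motifs found by exact search on both strands, the CRE (TGACGTCA) bound by CREB and the GC box (GGGCGG) bound by Sp1. For Syn1 the bases nearest the start are left out because they overlap annotated exons, so that the stretch covers 87 to 250 bases before the start. All are written 5′ to 3′ on the gene's own strand.
Syn1, chrX:20921005-20921168, minus strand: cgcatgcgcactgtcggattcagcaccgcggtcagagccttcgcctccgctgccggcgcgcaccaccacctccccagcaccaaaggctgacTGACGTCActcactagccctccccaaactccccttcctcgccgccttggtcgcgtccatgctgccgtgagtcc
Dlgap1, chr17:69968823-69969072, plus strand: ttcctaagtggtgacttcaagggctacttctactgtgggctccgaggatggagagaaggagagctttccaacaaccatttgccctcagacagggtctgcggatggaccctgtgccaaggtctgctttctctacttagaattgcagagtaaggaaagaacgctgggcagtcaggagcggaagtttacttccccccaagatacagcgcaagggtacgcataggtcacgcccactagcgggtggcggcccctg
Pclo, chr5:14514668-14514917, plus strand: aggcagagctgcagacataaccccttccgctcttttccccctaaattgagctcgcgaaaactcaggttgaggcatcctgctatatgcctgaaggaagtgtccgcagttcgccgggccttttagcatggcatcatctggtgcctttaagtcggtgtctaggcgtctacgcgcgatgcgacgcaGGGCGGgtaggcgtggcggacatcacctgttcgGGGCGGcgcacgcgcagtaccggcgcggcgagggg
Cadps2, chr6:23839422-23839671, minus strand: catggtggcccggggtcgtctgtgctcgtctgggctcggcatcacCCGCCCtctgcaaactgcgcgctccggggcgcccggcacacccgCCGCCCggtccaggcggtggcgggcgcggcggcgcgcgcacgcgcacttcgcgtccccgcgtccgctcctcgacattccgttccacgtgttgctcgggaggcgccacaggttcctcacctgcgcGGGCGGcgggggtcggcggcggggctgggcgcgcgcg
Syn1 was the single gene of the 34 with a CRE, 159 bases before its start (2.94% of the matched synaptic genes, against 2.82% of all 12851 tested genes with an entry). Pclo held GC boxes 68 and 35 bases before its start, and Cadps2 held them 205, 161 and 37 bases before, the first pair on the complementary strand. The stretch of Dlgap1 held none of the motifs searched. A GC box occurred in 24 of the 34 genes (70.6%, against 58.5% of all genes), the E-box CAGCTG in 10 (29.4%, against 15.2%), TATAAA in 3 (8.82%, against 8.72%) and the NRF1 motif in 1, Bsn (2.94%, against 1.6%). The synaptic genes had more entries per gene (53 for 34 genes, against 16511 for 12851), and counted per entry the share with a GC box was lower than over all entries (47.2%, against 51.8%), and that with the E-box 18.9%, against 12.9%. Median GC content was 58.0% for entries of the synaptic genes and 58.8% for all. A match describes these letters only, and binding was not measured.

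At week 3 a small number of the synaptic genes passed the test between the genotypes, and these were higher in NLGF. Synapsin 1 (Syn1), a phosphoprotein that tethers vesicles to one another and to actin in the reserve pool, lay on chromosome X (20860511 to 20921004, minus strand). Its level in WT ran from 401 over a median of 543 to 656 CPM, and in NLGF from 591 over 653 to 755 CPM. All NLGF libraries lay above the WT median, and the groups overlapped. The log2 fold change was 0.32 ± 0.07 (SE), with an adjusted p of 0.023 in edgeR's quasi-likelihood test with Benjamini-Hochberg adjustment. The higher level was seen in both sexes: 550 ± 27.5 CPM in WT and 694 ± 60.2 CPM in NLGF females, and 533 ± 94.0 and 652 ± 60.1 CPM in males (SD, n = 5, with the library whose sex label went against its counts under its label).

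Dlgap1, a scaffold that links Dlg4 (PSD-95) to Shank proteins (chromosome 17, 69969073 to 70821413, plus strand), was the other gene called. It ran from 592 over 647 to 710 CPM in WT and from 636 over 741 to 821 CPM in NLGF, and the groups overlapped between 636 and 710 CPM. The log2 fold change was 0.19 ± 0.05 (edgeR adjusted p = 0.0438). Annotated genes overlap both loci (Timp1 and Araf at Syn1, an antisense transcript at Dlgap1), and whether counting used the strand is not given in the sources used here. In bulk tissue, more cells of a type and more RNA per cell cannot be told apart.

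With 2 of 42 genes higher (the background was 1.67% of 16605 genes tested called higher and 2.11% lower, 3.78% in all) and 0 lower, the count is small in itself. The median log2 fold change over the 42 was 0.084, against 0.013 over all genes tested, with 30 genes above 0 and 12 below. Without NLGF female 2, 1 of the 3 libraries that are not deeper, the median was 0.042, and in the fits without any other library it was 0.065 to 0.096. In edgeR 11 of the 42 had an unadjusted p under 0.05, against 22% of all genes tested. For none of the 42 did the 10 NLGF libraries lie wholly outside the range of WT (0.0394% of all genes did). By role, the vesicle proteins had 1 of 10 called and a median of 0.11, and the postsynaptic scaffolds 1 of 10 and a median of 0.13. None of the 6 SNARE proteins and complexins (median 0.053), the 6 active zone and priming proteins (0.020), the 5 adhesion molecules (0.075), the 3 calcium sensors (0.12) or the 2 kinase subunits (0.024) passed the test. Without the deeper libraries no role held a call. Just outside the threshold were synaptophysin (Syp), an abundant membrane protein of the vesicle, at -0.32 ± 0.09 (edgeR adjusted p = 0.0545), the active zone scaffold Pclo at 0.22 ± 0.07 (0.063), the calcium sensor Syt1 at 0.20 ± 0.06 (0.0773) and the adhesion molecule Nlgn1 at 0.24 ± 0.08 (0.085).

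**Figure D3:**
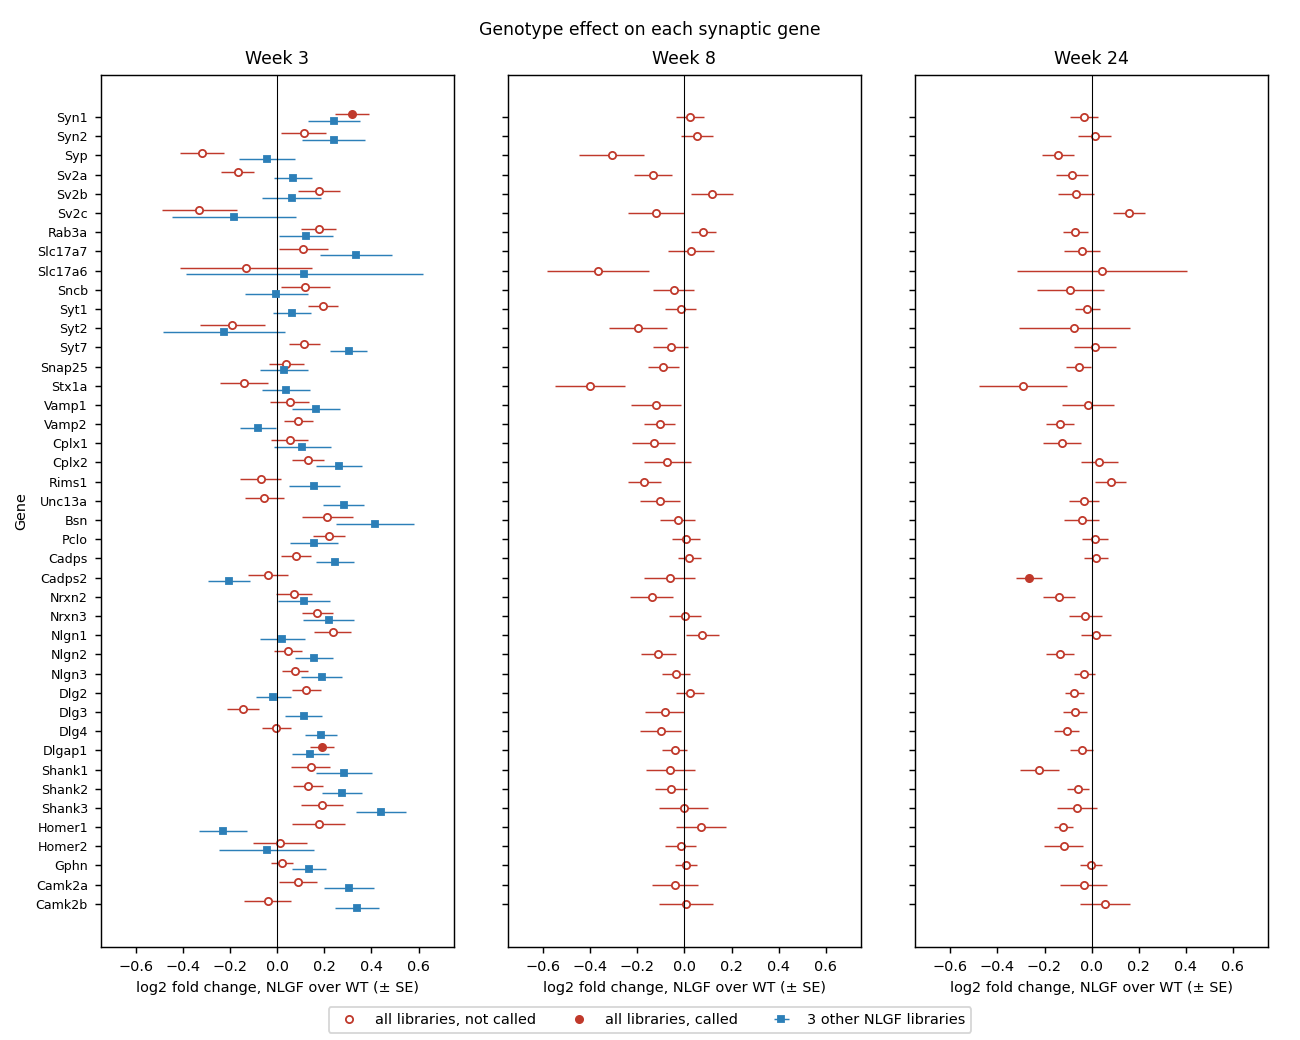
Log2 fold change of NLGF over WT (horizontal axis, with its standard error) for each of the 42 genes at weeks 3, 8 and 24, with filled circles for genes that passed the test and, at week 3, squares for the fit on the 3 NLGF libraries that are not deeper. Syn1 and Dlgap1 pass at week 3 and Cadps2 at week 24, and at week 8 no gene passes.

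Both calls at week 3 were lost without the deeper libraries. In the 7 deeper libraries Syn1 ran from 627 over 662 to 755 CPM, and in the other 3 it was 591, 617 and 732 CPM, so that both kinds stood above the WT median. Without the deeper libraries its log2 fold change was 0.24 ± 0.11 (edgeR adjusted p = 0.422) and that of Dlgap1 0.14 ± 0.08 (adjusted p = 0.504). With 3 NLGF libraries left, no gene of all 17187 tested passed edgeR's test, while 16 of the 42 synaptic genes and 1965 of all genes had an unadjusted p under 0.05. The median over the 42 was then 0.14, against -0.015 over all genes. The smallest p-values in that fit, chosen after the values were seen, were those of Shank3 (0.44 ± 0.11), a scaffold whose loss is a known cause of a form of autism, the calcium sensor Syt7 (0.30 ± 0.08) and Camk2b (0.34 ± 0.09), with adjusted p = 0.23, 0.261 and 0.306 in edgeR. Leaving out single libraries, Syn1 was lost without NLGF female 4 (adjusted p = 0.0509). Dlgap1 was lost in 14 of 20 fits (highest adjusted p 0.0866), namely without any 1 of the deeper libraries, WT females 1, 2, 3 and 5 or WT males 2, 3 and 5, and also with no filter on low counts (0.0889). The count of called synaptic genes was 0 without NLGF female 4 (122 of all genes called), 6 without NLGF female 2 (1381) or male 1 (1923), both among the 3 other libraries, and 4 without WT male 4 (601), against 628 of all genes with every library.

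Against WT, the 7 deeper libraries alone gave 6 synaptic genes higher and 5 lower (21.5% of all genes called), and their median over the 42 was 0.025. Syn1 (0.34), Dlgap1 (0.20), Pclo (0.23), Syt1 (0.23), Nlgn1 (0.30) and Homer1 (0.31) were higher. Syp (-0.46), Sv2a (-0.28), Dlg3 (-0.27), Unc13a (-0.22) and Camk2b (-0.22) were lower. Several of these genes lay, by their medians, on opposite sides of WT in the 2 kinds of NLGF library. Unc13a, the Munc13 priming factor that opens syntaxin, ran from 420 over 500 to 580 CPM in WT, from 404 over 428 to 438 CPM in the deeper libraries and from 541 over 586 to 631 CPM in the other 3. The kinase subunit Camk2b ran from 1141 over 1400 to 1729 CPM in WT, from 1016 over 1215 to 1386 in the deeper libraries and from 1611 over 1616 to 1807 in the others. For both genes the 2 kinds of NLGF library did not overlap. The share of all genes without overlap between the 2 kinds was not counted, so nothing particular to these genes is read from it.

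Syp was lowest in the deeper libraries, at 1353 to 2035 CPM in WT (median 1727), 1123 to 1420 CPM in the deeper libraries (median 1221) and 1475 to 1826 CPM in the others (median 1558). Homer1, the scaffold that tethers group I metabotropic glutamate receptors and also has a short activity-induced form, went the other way. It ran from 89.2 over 122 to 163 CPM in WT, from 128 over 147 to 183 CPM in the deeper libraries and from 100 over 106 to 118 CPM in the others. The vesicle protein Sv2a, the binding site of the antiepileptic drug levetiracetam, ran from 534 over 576 to 678 CPM in WT, 451 to 526 CPM in the deeper libraries and 547 to 656 CPM in the others. Dlg3 (SAP102), a scaffold of immature synapses, ran from 230.0 to 304 CPM in WT, 203 to 228 CPM in the deeper libraries and 264 to 279 CPM in the others. Deeper libraries and WT did not overlap for Sv2a and Dlg3 (4.15% of all genes did not overlap in this way), and Cadps, a CAPS priming factor, was the gene whose 3 other libraries (356, 370 and 404 CPM) all lay above WT (287 to 351 CPM; 0.777% of all genes had no overlap there).

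Within NLGF at week 3, the deeper libraries over the other 3 differed in 7 of the 42 genes (14.3% of 19251 genes called in either direction). Homer1 was higher in the deeper libraries (0.47, edgeR adjusted p = 0.0197). Camk2b (-0.47, adjusted p = 0.012), Unc13a (-0.46, 0.00165), Syp (-0.40, 0.0183), Rims1 (-0.37, 0.0276), Dlg3 (-0.36, 0.0045) and Sv2a (-0.32, 0.0252) were lower. Syn1 and Dlgap1 were not among them. This comparison was added after the data had been seen. In the test of NLGF over WT at week 3, none of the 12 neuron markers (median log2 fold change 0.12), the 8 oligodendrocyte markers (-0.24), the 15 markers of the thalamus and neighbouring regions (0.11) or the 10 choroid plexus markers (1.1) passed. Of 12 interneuron markers 1 was lower, of 8 astrocyte markers 1 was lower and of 8 microglia markers 1 was higher. The sum of 10 choroid plexus markers ranged from 45.4 to 4580 CPM in WT and from 154 to 10773 CPM in NLGF. The part of these cell types in the week 3 results was not tested.

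**Figure D4:**
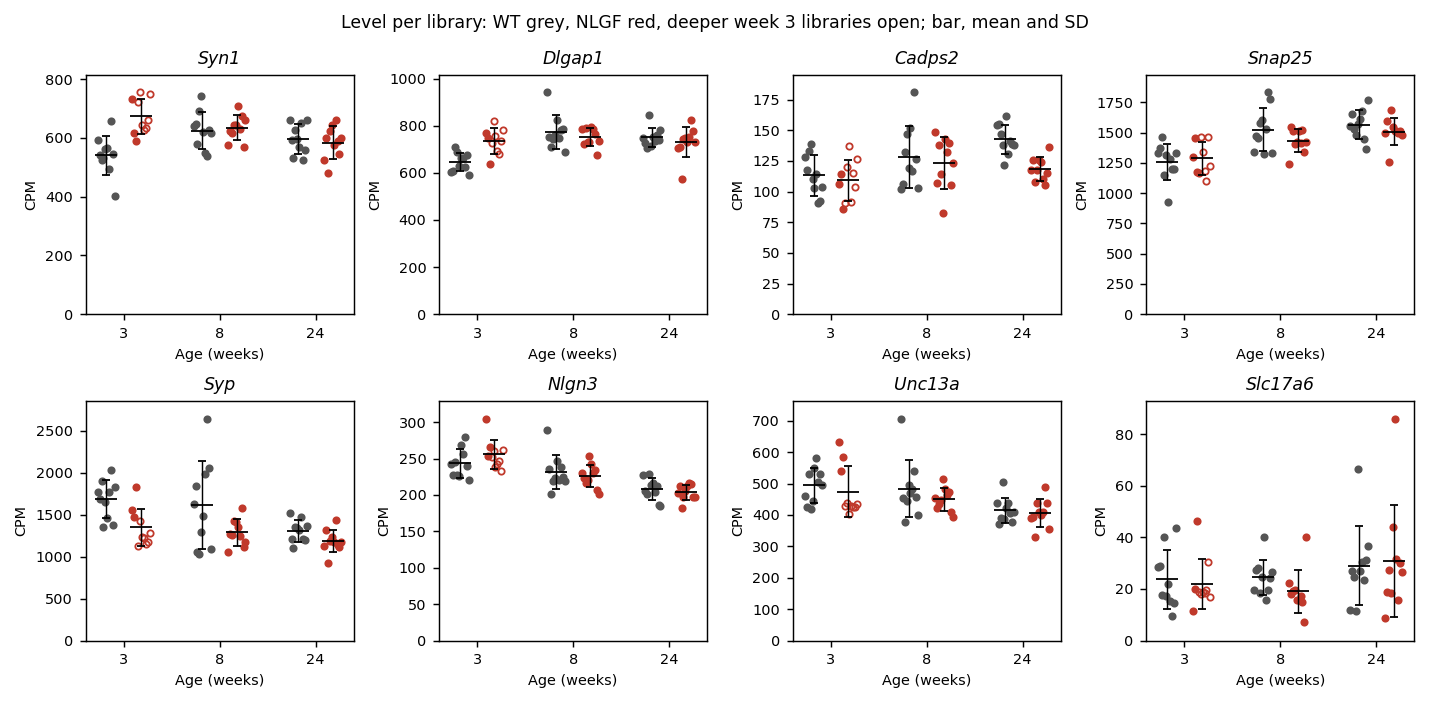
Level in CPM (vertical axis, linear from 0) of 8 synaptic genes in every library by age in weeks, WT in grey and NLGF in red, with bars for the mean and SD and open circles for the deeper libraries. At week 3 the NLGF libraries of Syn1 sit between 591 and 755 CPM against 401 to 656 in WT, the 2 kinds of NLGF library separate for Unc13a, and Cadps2 is lower in NLGF at week 24.

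At week 8 none of the 42 genes passed the test, and neither did any of the 16494 genes tested (0.0% called). DESeq2 and limma's voom with quality weights also called 0 of the 42. An unadjusted p under 0.05 was reached by 3 synaptic genes and by 1292 of all genes. These were the SNARE protein Stx1a (-0.40 ± 0.15), Rims1 (-0.17 ± 0.07) and Syp (-0.31 ± 0.14), each with an edgeR adjusted p of 0.633. The median over the 42 was -0.051, against -0.006 over all genes, and -0.070 to -0.015 without single libraries. Syn1, called at week 3, ran from 539 over 624 to 743 CPM in WT and from 570.0 over 637 to 708 CPM in NLGF at this age, and Dlgap1 from 687 over 757 to 942 CPM and from 677 over 752 to 796 CPM. For both genes the groups overlapped almost wholly.

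At week 24 a single synaptic gene passed the test, Cadps2, which was lower in NLGF. Cadps2 (chromosome 6, 23262773 to 23839421, minus strand) codes for CAPS2, a priming factor known for its part in the release of dense-core vesicles that carry neuropeptides and neurotrophins. It ran from 122 over 140.0 to 162 CPM in WT and from 105 over 118 to 136 CPM in NLGF. The groups overlapped, with 2 of the 10 WT libraries below the highest NLGF library. The log2 fold change was -0.27 ± 0.05 (adjusted p = 0.0143, edgeR's quasi-likelihood test with Benjamini-Hochberg adjustment). It was of like size in the sexes, 143 ± 13.7 CPM in WT and 119 ± 7.43 CPM in NLGF females, and 142 ± 11.7 and 118 ± 12.3 CPM in males (SD, n = 5).

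Of all 16508 genes tested at week 24, 0.0787% were called lower and 0.8% higher, 0.878% in all. Cadps2 passed in each of the 20 fits that left out 1 library (adjusted p 0.00453 to 0.0345). In a fit over all 60 libraries, which shares its estimate of the spread with the other ages, the fold change was -0.27 ± 0.09 and edgeR's adjusted p was 0.264 (0.727% of all genes called). DESeq2 called 1 of the 42, Cadps2, and 1.36% of all genes. The other CAPS gene, Cadps, ran from 293 over 351 to 379 CPM in WT and from 292 over 350.0 to 381 CPM in NLGF. The log2 ratio of Cadps2 to Cadps within each library therefore moved from -1.57 to -1.07 in WT (median -1.27) to -1.79 to -1.35 in NLGF (median -1.56).

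The remaining synaptic genes at week 24 did not pass. The median over the 42 was -0.048, against -0.0006 over all genes, with 32 of 42 below 0. Without NLGF week 24 female 3, the library with low levels across the set, the median was -0.017 and 29 of 42 were below 0. Cadps2 was 1 of 7 with an unadjusted p under 0.05 in edgeR, against 8.99% of all genes. The others were Homer1 (-0.12 ± 0.04, edgeR adjusted p = 0.283), Shank1 (-0.22 ± 0.08, 0.37), Sv2c (0.16), Vamp2 (-0.13), Nlgn2 (-0.13) and Syp (-0.14). All 10 postsynaptic scaffolds had fold changes below 0, from -0.22 to -0.0024, and none of them was called. Without NLGF week 24 female 3, 9 of the 10 were below 0. Some markers of other cell types moved at this age. Of 8 microglia markers 5 rose in NLGF, among them C1qa (0.58), Cx3cr1 (0.36), Csf1r (0.35) and Itgam (0.29), and the summed level of the 8 went from 290.0 to 337 CPM in WT to 331 to 425 CPM in NLGF. Of 8 astrocyte markers 1 was called, Gfap, higher by 0.86 on the log2 scale, and the median over the 8 was -0.055. None of 12 neuron markers was called, and their sum was 4713 to 5358 CPM in WT and 4201 to 5208 CPM in NLGF. What part this has in the level of Cadps2 was not tested.

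The difference between the ages was tested on the genotype effect itself, in 1 fit over all 60 libraries. From week 3 to week 24 the effect on Syn1 fell by 0.35 on the log2 scale (edgeR adjusted p = 0.0335; of 17752 genes, 0.248% had a falling and 0.901% a rising effect, 1.15% in all). Syn1 in NLGF ran from 591 over 653 to 755 CPM at week 3 and from 479 over 594 to 662 CPM at week 24, and in WT from 401 over 543 to 656 CPM and from 525 over 593 to 661 CPM. At week 24 the groups overlapped almost wholly. The effect was lower at week 24 for 33 of the 42 genes, with a median of -0.15 against -0.0042 over all genes. In edgeR 12 of the 42 had an unadjusted p under 0.05, against 13.5% of all genes.

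This call on Syn1 was lost in 10 of 60 fits that left out 1 library (highest adjusted p 0.066) and with no filter on low counts (0.0586). The libraries were NLGF week 24 females 1 and 3 and male 4, WT week 24 females 1 and 4 and males 2 and 5, NLGF week 3 female 4 and male 5, and WT week 3 male 5. Without the deeper libraries the difference was -0.28 ± 0.12 (adjusted p = 0.372; 0.0799% of all genes called). DESeq2 called 2 of the 42 and 1.74% of all genes, and in edgeR 2 synaptic genes were called without NLGF week 3 male 1 (538 of all genes called, against 204) or WT week 8 female 1 (252). Cadps2, called at week 24 alone, did not pass in any of these tests of the difference between ages. Between weeks 8 and 24 none of the 42 passed edgeR's test (0.31% of all genes called), and DESeq2 called 0 (0.4% of all genes). In edgeR 1 of the 42 had an unadjusted p under 0.05, against 3.85% of all genes. Between weeks 3 and 8 none passed (0.18% of all genes called), and DESeq2 called 0 (0.451% of all genes). There 6 of the 42 had an unadjusted p under 0.05 in edgeR, against 7.26% of all genes. Without the deeper libraries that difference again gave 0 calls, with 14 of the 42 and 2155 of all 18779 genes at an unadjusted p under 0.05 and a median of -0.22, against 0.0049 over all genes.

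Age was compared within the WT mice. Between weeks 3 and 8, 3 synaptic genes rose and 0 fell (2.63% of 16844 genes tested rose and 4.51% fell, 7.14% in all), and 3 of 42 is close to the share over all genes. Snap25, the SNARE protein of the presynaptic membrane (chromosome 2, 136713453 to 136782428, plus strand), ran from 928 over 1297 to 1464 CPM at week 3, from 1323 over 1501 to 1834 CPM at week 8 and from 1366 over 1564 to 1771 CPM at week 24. The week 3 and week 8 sets overlapped between 1323 and 1464 CPM. Its log2 fold change from week 3 to 8 was 0.28 ± 0.07 (edgeR adjusted p = 0.0137). Dlgap1 rose from a median of 647 to 757 CPM (0.26 ± 0.05, adjusted p = 0.000972).

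Pclo (chromosome 5, 14514918 to 14863459, plus strand) ran from 593 over 763 to 973 CPM at week 3 and from 765 over 912 to 1085 CPM at week 8 (0.24 ± 0.07, edgeR adjusted p = 0.0226), and this call was lost without WT week 8 female 4, female 5 or male 4 (highest adjusted p 0.0666). Without WT week 8 female 1, the library with high levels across the set, 6 synaptic genes were called instead of 3, and 2029 of all genes instead of 1202. Over the same weeks 8 of 8 oligodendrocyte markers were lower (median log2 fold change -1.28) and 3 of 12 neuron markers higher (0.099), and none of the interneuron, astrocyte, microglia, choroid plexus or regional markers passed. Their part in the level of the synaptic genes was not tested. Between weeks 8 and 24 none of the 42 passed edgeR's test (0.279% of all genes called), and DESeq2 also called 0 (0.659% of all genes). In edgeR 4 of the 42 had an unadjusted p under 0.05, against 11.5% of all genes. No synaptic gene had sets without overlap between these ages (0.0394% of all genes).

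Over the whole span from week 3 to week 24, 8 synaptic genes rose and 3 fell in WT. The background was high, with 10.6% of all genes called higher and 11.3% lower, 21.9% in all, and 11 of 42 is close to it. The median over the 42 was 0.013, against 0.0078 over all genes, and its sign turned without WT week 3 female 2 (-0.0025), female 4 (-0.022), female 5 (-0.004) or male 5 (-0.019) or WT week 24 female 1 (-0.0016).

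The genes that rose included parts of the release machinery. Cadps2 ran from 90.9 over 112 to 139 CPM at week 3 and from 122 over 140.0 to 162 CPM at week 24 (log2 fold change 0.34 ± 0.09, edgeR adjusted p = 0.00866), and Snap25 changed by 0.32 ± 0.07 (0.00176). The calcium sensor Syt1, which triggers fast synchronous release, ran from 1136 over 1348 to 1551 CPM and from 1358 over 1574 to 1837 CPM (0.23 ± 0.07, 0.0109). For each of these 3 genes the sets overlapped and the week 24 median lay above the week 3 median.

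Rab3a, the small GTPase of the vesicle membrane, ran from 227 over 349 to 380.0 CPM and from 357 over 387 to 431 CPM (0.22 ± 0.07, adjusted p = 0.0159 in edgeR). Beta-synuclein (Sncb), a presynaptic protein related to alpha-synuclein, ran from 169 over 271 to 310.0 CPM and from 225 over 304 to 461 CPM (0.32 ± 0.11, 0.0435). Sncb has the weakest of these calls: 19 of the 30 fits without 1 library lost it (highest adjusted p 0.112). They were the fits without WT week 24 female 5 or males 1, 2, 4 and 5, WT week 3 females 1 and 3 or males 1, 2, 4 and 5, and WT week 8 females 2, 4 and 5 or any of the 5 males.

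Across the cleft, Dlgap1 (0.22 ± 0.05, edgeR adjusted p = 0.00221) and Nlgn1, the neuroligin of excitatory synapses (0.22 ± 0.08, 0.0396), were higher at week 24. On the presynaptic side, the active zone scaffold Pclo was 0.21 ± 0.07 higher (edgeR adjusted p = 0.0235). Nlgn1 ran from 82.4 over 97.1 to 120.0 CPM at week 3 and from 93.0 over 115 to 140.0 CPM at week 24, with wide overlap. Its call was lost in 12 of 30 fits without 1 library (highest adjusted p 0.102): those without WT week 24 females 2 and 3 or males 1 to 3, and WT week 3 females 2 and 4 or any of the 5 males. The call on Pclo was lost without WT week 24 male 2 or WT week 3 male 5 (highest adjusted p 0.0578).

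The 3 genes that fell were Syp, Unc13a and Nlgn3. Nlgn3 (chromosome X, 101299168 to 101325963), a neuroligin found at excitatory and inhibitory synapses, ran from 220.0 CPM upwards over a median of 242 CPM at week 3 and from 185 over 209 to 229 CPM at week 24 (-0.23 ± 0.06, edgeR adjusted p = 0.00468). Syp (chromosome X, 7638471 to 7653256) ran from 1353 over 1727 to 2035 CPM and from 1097 over 1325 to 1516 CPM (-0.36 ± 0.12, 0.0353). Unc13a ran from 420.0 over 500.0 to 580.0 CPM and from 371 over 408 to 505 CPM (-0.25 ± 0.08, 0.0278). The upper end of each week 24 set lay within the week 3 set.

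The call on Syp was lost in 12 of 30 fits (highest adjusted p 0.0655): those without WT week 24 females 2 and 3 or males 1, 3, 4 and 5, and WT week 3 females 1 to 3 or males 2, 3 and 5. That on Unc13a was lost without WT week 24 female 2 or male 4, or WT week 3 female 3 or male 2 (highest adjusted p 0.0603). Calls on Cadps2, Snap25, Syt1, Rab3a, Dlgap1 and Nlgn3 held in all 30 fits. The count over the list was 7 without WT week 3 male 2 (3118 of all genes called, against 3693) or male 5 (3327), and 7 with no filter on low counts, where Syp (edgeR adjusted p = 0.06), Sncb (0.0635), Nlgn1 (0.0521) and Unc13a (0.0503) were lost. No gene of the 42 had sets without overlap between WT weeks 3 and 24, against 2.68% of all genes. Oligodendrocyte markers moved with the same contrast: 8 of 8 were lower at week 24 (median log2 fold change -1.58), with a summed level of 6672 to 16771 CPM at week 3 and 2714 to 4791 CPM at week 24, none at 0. Of 12 neuron markers 2 were higher and 1 lower (median 0.13), of 12 interneuron markers 2 were higher, of 8 astrocyte markers 2 were lower and of 8 microglia markers 3 were higher. The part of these cell types in the level of the synaptic genes was not tested.

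**Figure D5:**
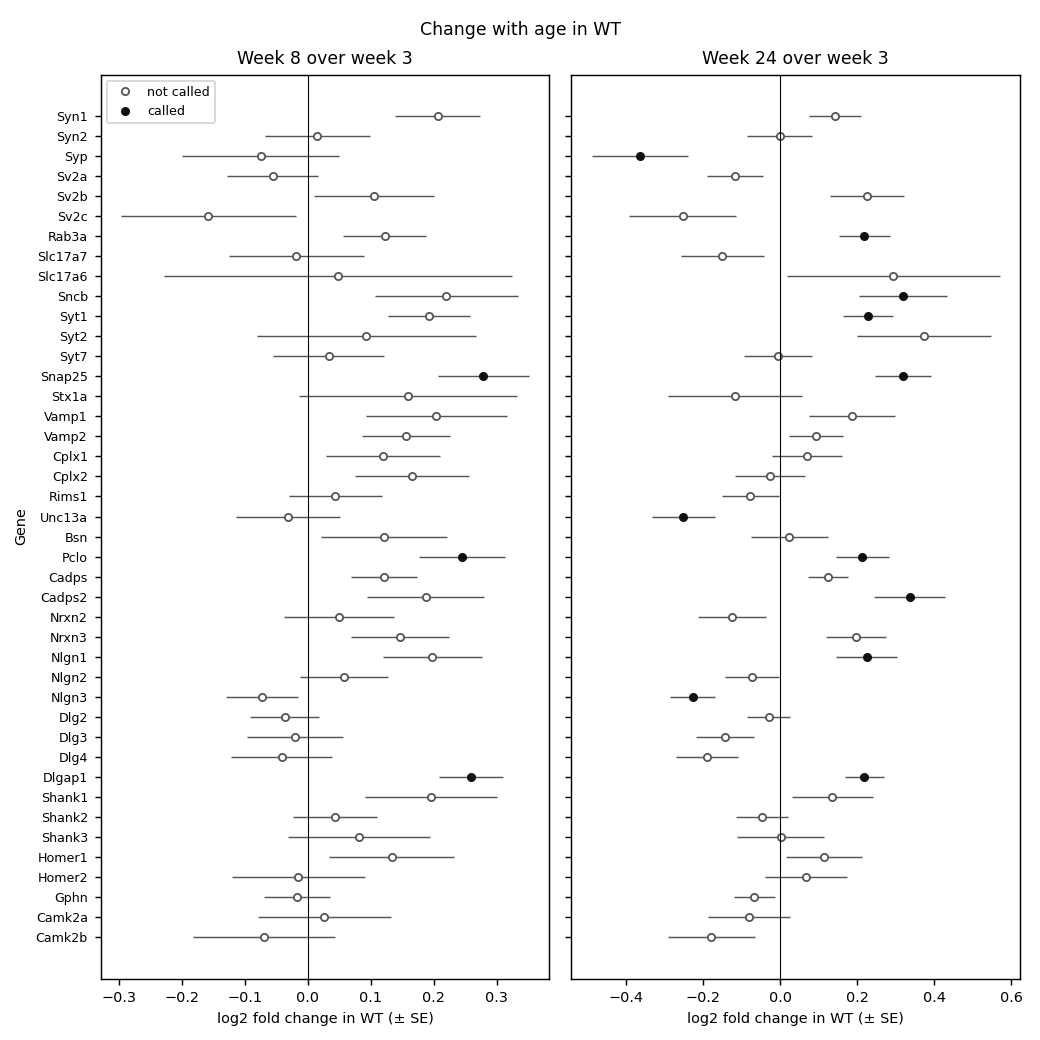
Log2 fold change of week 8 over week 3 and of week 24 over week 3 in WT (horizontal axis, with its standard error) for the 42 genes, with genes that passed the test filled in. Snap25, Dlgap1 and Pclo pass at both ages, and Syp, Unc13a and Nlgn3 are lower at week 24.

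In NLGF mice, with the deeper libraries at week 3, only Nlgn3 passed between weeks 3 and 8, where it fell by 0.18 on the log2 scale (edgeR adjusted p = 0.00798; of 17391 genes 4.9% rose and 5.51% fell, 10.4% in all). It ran from 233 over 253 to 305 CPM at week 3 and from 202 over 227 to 253 CPM at week 8. Without the deeper libraries 1 synaptic gene was higher and 9 lower at week 8 (14.6% of all genes called): Homer1 (0.38) was higher, and Unc13a (-0.39), Syp (-0.34), Shank3 (-0.32), Syt7 (-0.31), Dlg4 (-0.31), Bsn (-0.31), Rims1 (-0.30), Shank2 (-0.28) and Nlgn3 (-0.28) were lower. Nlgn3 was called with and without the deeper libraries, and the other 9 without them. The week 3 set then held 3 libraries. With all libraries, 2 synaptic genes were called without NLGF week 3 male 1 or male 4, or NLGF week 8 female 1 or female 4 (1678 to 2081 of all genes called, against 1811). Of the cell markers, 7 of 8 for oligodendrocytes (median -0.80), 2 of 8 for astrocytes, 1 of 8 for microglia, 1 of 12 for neurons and 1 of 15 for the thalamus and neighbouring regions were lower at week 8 in NLGF with all libraries, and their part was not tested. From week 8 to 24 none of the 42 passed edgeR's test, while 1.36% of all genes rose and 0.541% fell, 1.9% in all. In that test 10 of the 42 had an unadjusted p under 0.05, against 12.2% of all genes. DESeq2 called 1, Nlgn3 (-0.15), and 2.78% of all genes. Without NLGF week 3 female 2, edgeR called 1 synaptic gene and 352 of all genes, against 331.

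Ratios of related genes within a library do not depend on the scaling between libraries. The log2 ratio of Syn2 to Syn1 had a median of 0.46 in WT at week 3, 0.093 in the deeper NLGF libraries and 0.41 in the other 3. Camk2a to Camk2b, whose ratio is known to set the calcium sensitivity of the kinase holoenzyme, ran from 1.68 to 1.97 in WT at week 3, 1.93 to 2.18 in the deeper libraries and 1.71 to 1.83 in the others. Sv2b to Sv2a had a median of -0.42 in WT and -0.090 in NLGF at week 3. For these ratios the other 3 NLGF libraries were nearer to WT than the deeper ones were, by their medians. Some other pairs went the opposite way at week 3. Homer2 to Homer1 had a median of 0.13 in WT, 0.047 in the deeper libraries and 0.40 in the other 3. Pclo to Bsn had medians of -0.99, -0.97 and -1.30 in the same order. For Cadps2 to Cadps and Cplx1 to Cplx2 the deeper libraries were also the nearer to WT. Ratios for Vamp1 to Vamp2, Syt2 to Syt1 and Cplx1 to Cplx2 overlapped between the genotypes at each age. So did the other ratios named here, with all NLGF libraries of an age counted. At week 3 Syn2 to Syn1 ran from 0.14 to 0.69 in WT and from -0.14 to 0.55 in NLGF. Sv2b to Sv2a ran from -1.18 to -0.065 in WT and from -0.72 to 0.22 in NLGF. Camk2a to Camk2b ran from 1.68 to 1.97 in WT and from 1.71 to 2.18 in NLGF.

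Several members are stronger in cells outside the hippocampal principal layers, so 5 of them (Slc17a6, Syt2, Vamp1, Sv2c and Cadps2) were set against the 15 genes of the thalamus and neighbouring regions. Deviations from the group means over all 60 libraries correlated for Slc17a6 (Pearson r = 0.425, permutation p = 0.0144, adjusted over the 5 relations 0.036; Spearman rho = 0.318, permutation p = 0.035, adjusted 0.0876). Without the 2 libraries farthest from the median r was 0.217, so the relation of Slc17a6 rests on those libraries. Cadps2 went the opposite way (r = -0.348, permutation p = 0.00288, adjusted 0.0144; rho = -0.352, permutation p = 0.00678, adjusted 0.0339), and r was -0.36 without the 2 farthest libraries. Without the deeper libraries it was -0.329 (permutation, adjusted 0.0485) with a rho of -0.359 (permutation, adjusted 0.0585). The relations of Syt2 (r = -0.226), Vamp1 (-0.181) and Sv2c (0.195) did not pass. At week 24 the summed level of the regional list was 172 to 746 CPM in WT and 180.0 to 563 CPM in NLGF. The part of these regions in the genotype difference of Cadps2 was not tested.

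No gene of the 42 differed between males and females in the same direction in all 6 sets. Among the 4 genes on chromosome X, the log2 difference of males minus females ran from -0.16 to 0.06 for Syn1, from -0.04 to 0.41 for Syp, from -0.10 to 0.11 for Nlgn3 and from -0.07 to 0.12 for Dlg3 over the 6 sets. Syp was higher in males in 5 of 6 sets. No test was made for sex.

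Other synaptic genes, listed by role, gave few genotype calls. At week 3, 0 of 43 other genes of the release machinery and 0 of 19 genes of vesicle endocytosis passed the test. Of 32 other postsynaptic density genes 2 were higher in NLGF, Tanc2 (0.24, edgeR adjusted p = 0.0282) and Cnksr2 (0.27, 0.0487), and of 30 other synaptic adhesion genes 2 were higher, Slitrk3 (0.27, 0.0292) and Flrt3 (0.34, 0.0433). The share over all genes was 1.67% higher and 3.78% in all, and without the deeper libraries none of these 4 genes passed, as no gene did. At weeks 8 and 24 none of these lists held a call. Between weeks 3 and 24 in WT, 6 genes of the release machinery rose and 2 fell, among them the calcium sensor relative Syt4 (0.57), Stxbp5 (tomosyn, 0.18) and Erc1 (-0.37). In endocytosis 3 rose and 3 fell, with the phosphatase synaptojanin 1 (Synj1) at 0.31, Sh3gl1 at -0.58 and Sncaip at -0.75. In the postsynaptic density 7 rose and 0 fell, with the Camk2 inhibitor Camk2n1 at 0.59, Cnksr2 at 0.43 and Lrrc7 at 0.24, and of the adhesion genes 3 rose and 2 fell, with Lrfn5 at 0.20, Ptprf at -0.34 and Efnb3 at -0.37. These counts stand beside 10.6% of all genes called higher and 11.3% lower, and nothing particular to the lists is read from them.

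The authors' deposited table of genotype differences lists 7 of the 42 genes at week 3 and 0 at weeks 8 and 24, among 2628, 4 and 156 genes in all. It holds only the genes the authors listed, so the 7 stand without a share over all genes the authors tested. In the authors' deposited table Syn1 (0.26), Pclo (0.19), Nlgn1 (0.18), Dlgap1 (0.17), Syt1 (0.16) and Rab3a (0.15) are higher in NLGF and Syp (-0.19) is lower, with adjusted p-values from 5.8e-05 for Syn1 to 0.0352 for Syp. Cadps2 is not in the authors' deposited table at week 24.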

How the data were processed

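The 42 genes, their roles and all other lists were chosen with earlier results of these data known. Per the labels' protocols, RNA from aliquots of frozen hippocampus went into rRNA-depleted libraries, and the submitters' processing notes name FastQC, STAR, edgeR, DESeq2 and mm10, while no source used here names the counter, the annotation or the strand setting. The authors deposited raw counts per gene for the 60 libraries. Their second table, deposited with DESeq2-style column names, holds a normalized mean signal, the log2 fold change between the genotypes and its error, and raw and adjusted p-values for the genes the authors listed. It was used only where named.

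From the counts, genes were filtered with filterByExpr (minimum count 10), scaled by TMM and tested with edgeR 4.0.16 (robust quasi-likelihood F-test, R 4.3.3) with sex as covariate. The Benjamini-Hochberg adjustment ran over all genes tested, and a gene was called at an adjusted p under 0.05. Genotypes were compared within a week over 20 libraries, ages within a genotype over 30, and differences of the genotype effect over 60. Standard errors were taken as the log2 fold change divided by the square root of F. Levels are CPM scaled by TMM over all libraries. Correlations used log2(CPM + 1), Python 3.11.15 and SciPy 1.17.1, with 100000 permutations within groups. Scripts were tested on simulated data. For the genotype at week 3 the test called 36% of simulated 1.25-fold changes and 2% of 1.1-fold changes. At week 24 it called 44% and 0%. A gene that was not called may therefore still differ by amounts of this size.

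Full values are given for genes called in a genotype comparison or a difference between ages, for the 10 largest called changes between WT weeks 3 and 24, and for up to 5 genes whose call depends on the deeper libraries. Alternatives were DESeq2 1.42.0, RLE scaling, other filters on low counts, no sex term, limma 3.58.1 (voom with quality weights), a fit over all libraries, a replicate block, leaving out each library, and leaving out or keeping only the deeper libraries. The comparison of deeper with other libraries was chosen after seeing the data. At 17786578 to 73423252 counts per library, the lowest count of a synaptic gene was 212, and the spread between libraries limits the precision.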

Additional observations from a re-analysis of the deposited data

Results flagged for a closer look

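Dixon's test of the highest or lowest of 10 libraries (at its 95% critical value) picked out 29 of the 252 combinations of a gene and a set, over 18 genes and 14 libraries. A rate of about 1 in 20 would hold for independent, normally distributed values. Many of these genes moved together within single libraries, and the share over all genes was not counted. The 29 are therefore not set against that rate. WT week 8 female 1 stood apart at the high end for 9 genes: Shank1 at 3134 CPM (next library 2118), Shank3 at 837 CPM (525), Dlg4 at 1527 CPM (1004), Camk2a at 7451 CPM (5239), Camk2b at 2259 CPM (1369), Unc13a at 707 CPM (540.0), Bsn at 2221 CPM (1833), Syt7 at 571 CPM (454) and Nlgn3 at 289 CPM (247).

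WT week 24 female 4 was highest in its set for Unc13a (505 CPM, next 438), Dlg4 (1088, next 950.0), Dlgap1 (847, next 780.0), Shank1 (2678, next 2057) and Camk2a (6474, next 4867). NLGF week 24 female 3 was lowest for Snap25 (1258 CPM, next 1478), Pclo (716, next 845), Dlgap1 (576, next 704) and Cadps (292, next 334).

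The VGLUT2 gene Slc17a6 had a high library in 4 of 6 sets: WT week 8 male 1 (40.1 CPM, next 28.1), NLGF week 8 male 5 (40.3, next 22.3), WT week 24 female 5 (66.3, next 36.6) and NLGF week 24 male 1 (86.0, next 44.0). At week 3 the single libraries were all NLGF, with Vamp1 low in male 3 (62.1 CPM, next 81.6), Rims1 high in male 1 (320.0, next 245) and Nlgn3 high in female 2 (305, next 266). The rest were Syn2 in WT week 24 female 1 (938 CPM, next 770.0), Syt2 in WT week 24 male 5 (122, next 83.6), Syt7 in NLGF week 8 female 5 (470.0, next 408) and Vamp1 in NLGF week 24 female 5 (138, next 109).

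The genotype effect on Syn1 differed between weeks 3 and 24 by -0.35 on the log2 scale in edgeR's test of the difference, as described above.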

How the results depend on the processing

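No gene called in the main fit changed sign under any alternative, and none called in an alternative had the opposite sign in the main fit. Signs of genes that were not called and of medians did turn. Signs also turned between alternatives: Camk2b at week 3 was called lower with only the deeper libraries (-0.22), and was higher and not called without them. For the genotype at week 3 the main fit called 2 genes (3.78% of all genes called). DESeq2 called 6 (8.95%), a fit over all 60 libraries 6 (10.7%) and voom with quality weights 8 (18.8%). With at least 1 CPM in 10 libraries 4 were called (5.49%), and with no filter on low counts 1 (1.15%). Without the deeper libraries the count was 0 (0%), and with only those 11 (21.5%). Without single libraries it was 0 to 6 (102 to 1923 of all genes). At week 24 the 1 call, on Cadps2 (0.878% of all genes called), became 0 in the fit over all 60 libraries (0.727%). In each fit without a library 1 gene remained called (115 to 168 of all genes). The difference between weeks 24 and 3 gave 1 called gene (1.15% of all genes called) and 2 with DESeq2 (1.74%). It gave 0 with no filter (0.393%), 0 without the deeper libraries (0.0799%) and 0 to 2 without single libraries (124 to 538 of all genes). In WT, weeks 8 over 3 gave 3 calls (7.14% of all genes called), 5 with DESeq2 (8.79%) and 2 to 6 without single libraries (999 to 2029 genes). Weeks 24 over 3 gave 11 (21.9%), 7 with no filter (10.7%) and 7 to 13 without single libraries (3118 to 4364 genes). In NLGF, weeks 8 over 3 gave 1 call (10.4% of all genes called) and 10 without the deeper libraries (14.6%). Without single libraries they gave 1 to 2 (1409 to 2139 genes). Weeks 24 over 8 gave 0 (1.9%), 1 with DESeq2 (2.78%) and 0 to 1 without single libraries (273 to 406 genes). The cause of these moves was not tested, except that leaving out the deeper libraries leaves 3 in NLGF week 3. Replicate numbers were not taken as pairs, since not every correlation of same-numbered deviations was above 0.1 (-0.237 to 0.23 at week 3, -0.171 to 0.283 at week 8 and -0.072 to 0.554 at week 24, best with its own number in 1, 2 and 5 of 10). With the number as a block, the week 3 count was 0 (0.994% of all genes called, Syn1 edgeR adjusted p = 0.0628, Dlgap1 0.106). Counts at week 24 (1, 0.878%) and in the difference of weeks 24 and 3 (1, 0.98%) moved by no more than 1.5 times. So did those in WT weeks 24 over 3 (10, 19.5%) and 8 over 3 (2, 5.95%) and in NLGF weeks 8 over 3 (1, 9.71%). Sncb (edgeR adjusted p = 0.0876) and Pclo (0.0525) were lost in WT.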
